A study of Mus musculus with 6 samples.

Results

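The genes described here are 142 of the 37991 genes in a count table of regulatory T cells (Treg). They were chosen because their RNA was lower in the 3 libraries with little Trim28 RNA than in the 3 libraries with much. CPM is a gene's count divided by the library total and multiplied by 1000000. A member had a mean of at least 1 CPM over the libraries sufficient 1, sufficient 2 and deficient 3. That mean was at least 1.8 times the mean over sufficient 3, deficient 1 and deficient 2, and the lowest of the first 3 values was above the highest of the last 3. Of 12036 genes at a mean of at least 1 CPM in the first 3 libraries, 154 met these thresholds (1.28%), and 12 named genes among them were left out. The same thresholds in the opposite direction were met by 227 genes. The ratios that chose the members are given as a description, with no test.

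RNA came from spleen Treg of mice labelled KAP1 sufficient (wild type, 3 libraries) or KAP1 deficient (3 libraries), enriched as CD4+ cells and then sorted for YFP. The strain label reads C57BL/6 in 4 libraries, C57BL/7 in deficient 2 and C57BL/8 in deficient 3. The alleles behind the deficiency, the promoter that drives YFP, the age of the mice and whether libraries came from separate animals are not stated in the labels. The spread behind each p-value is therefore that of these libraries and may be technical. Totals ran from 9954344 to 10994745 counts per library. Trim28, which encodes KAP1, had 2462, 2483 and 218 counts in sufficient 1 to 3 and 232, 185 and 2544 counts in deficient 1 to 3. The library labelled sufficient 3 was thus low and the library labelled deficient 3 was high, against their labels. Below, "Trim28-high" means sufficient 1, sufficient 2 and deficient 3, in that order, and "Trim28-low" means sufficient 3, deficient 1 and deficient 2, in that order. These are sets of libraries defined by the rule and by the Trim28 level, not the groups of the study.

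KAP1 is a scaffold for gene silencing: zinc finger proteins with a KRAB domain bind DNA and attract it, and it recruits enzymes that deposit repressive histone marks. Treg are CD4 T cells that restrain immune responses under the transcription factor Foxp3. A subset called effector Treg takes up traits of helper T cells, such as their transcription factors and homing receptors, and divides more. Genes that are lower without a co-repressor are not its textbook targets, which are silenced by it.

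The members were mostly modest in level and in ratio. Their median mean in the Trim28-high libraries was 2.96 CPM, with 49 members under 2 CPM, 63 from 2 to under 10 CPM and 30 at 10 CPM or more. The median ratio of means was 2.19, and 99 members reached 2-fold, 24 reached 3-fold and 8 reached 5-fold. A 95% exact binomial interval of the pooled counts, which covers counting error only, had its lower bound above 1.8 in 38 members and at or under 1.5 in 63. Below, fold values are ratios of mean CPM, while intervals belong to the ratio of pooled counts scaled by library totals. Over the Trim28-low libraries, 36 members had fewer than 20 counts in all. Summed over the members, sufficient 1, sufficient 2 and deficient 3 held 1262, 1287 and 1185 CPM, against 574, 533 and 506 CPM in sufficient 3, deficient 1 and deficient 2. In bulk RNA, fewer cells of a type and less RNA per cell cannot be told apart. At the edge of the rule, the unnamed gene ENSMUSG00000091982 (1.8001), Neil3 (1.802) and Prr11 (1.814) were just inside by ratio, and Traj3 (1.799), Serp2 (1.798) and Cenpv (1.794) just outside.

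**Figure D1:**
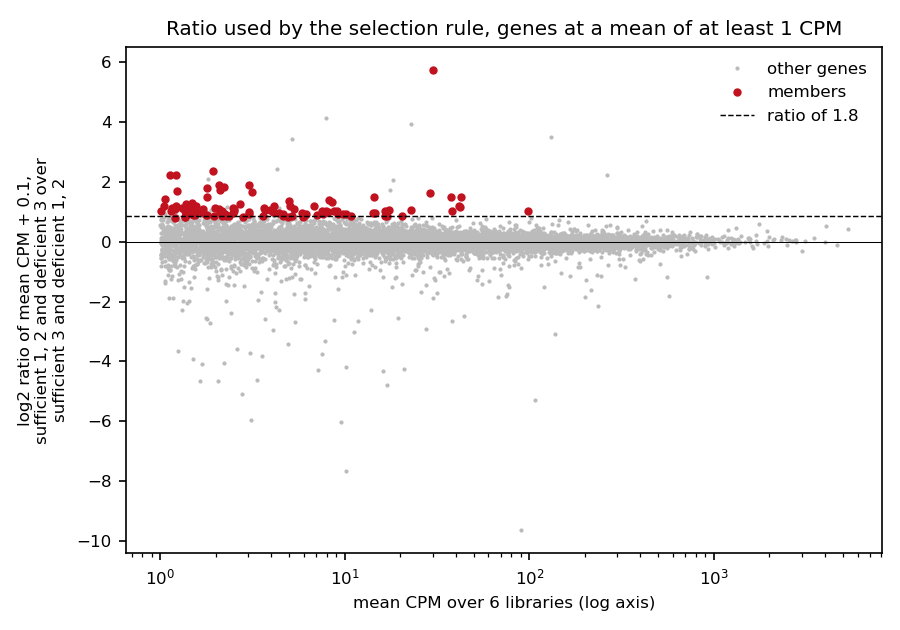
Each point is a gene with a position in the annotation, at a mean of at least 1 CPM over 6 libraries (x axis, log scale), with the log2 ratio of its mean CPM + 0.1 in Trim28-high over Trim28-low libraries on the y axis. Of the 107 members drawn (red), 6 fall under the dashed ratio of 1.8 because of the offset of 0.1, which the rule did not use, and Eps8l1 stands far above the rest.

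Of the members, 116 were protein coding, 8 were pseudogenes, 8 were noncoding RNA genes, 1 was a T cell receptor variable segment, and 9 had no symbol or position in the annotation. Reads of another counted gene overlap 28 members in position, so without strand information their reads cannot be assigned with certainty.

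Eps8l1, an actin regulator of the EPS8 family (chr7:4460674-4480487, mm10), had the highest ratio of the members that were detected in both sets of libraries. It stood at 61, 31.5 and 84 CPM in the Trim28-high libraries and 0, 0 and 3.01 CPM in the Trim28-low ones. Its ratio of means was 58.6, and its ratio of pooled counts was 60.2, with a 95% interval of 42 to 89.4. The Trim28-high libraries themselves differed, with deficient 3 at 1.82 times the mean of sufficient 1 and 2. Eps8l1 lies 8.52 Mb before Trim28 on chromosome 7. Nectin2, an adhesion protein, had 9, 13 and 10 counts against 0 in each Trim28-low library, at least 10.4-fold with 3 counts over those libraries as the floor. Apba1, an adaptor of neurons, had 15, 14 and 16 counts against 0, 2 and 1, an interval of 4.67 to 73.2. Apba1 and Nectin2 thus rest on few counts.

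Promoter sequences of 7 members are shown because they hold letter patterns described at the end: TTTC, any 2 bases and TTTC again, in genes of the interferon response and Eps8l1, and several CCAAT boxes in each of the cell cycle genes Hmmr and Prr11. All are upstream of the RefSeq start site, from the GRCm38.p6 build, written 5′ to 3′ in the gene's direction with matches on either strand in capitals. Ifit3 (chr19:34583329-34583528, plus strand) and Ifit3b (chr19:34607757-34607956, plus strand) follow first, and they share an unbroken run of 119 bases.
Ifit3: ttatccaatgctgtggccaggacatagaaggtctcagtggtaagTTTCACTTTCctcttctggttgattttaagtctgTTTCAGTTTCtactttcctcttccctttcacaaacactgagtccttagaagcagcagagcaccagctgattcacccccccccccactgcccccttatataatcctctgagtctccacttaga
Ifit3b: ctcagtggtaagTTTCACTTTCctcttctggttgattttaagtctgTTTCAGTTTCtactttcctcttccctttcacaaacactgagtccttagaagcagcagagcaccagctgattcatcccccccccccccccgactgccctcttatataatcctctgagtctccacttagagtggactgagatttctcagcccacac
The next 3 windows, for Cxcl10 (chr5:92348890-92349139, minus strand), Ifi208 (chr1:173673415-173673664, plus strand) and Eps8l1 (chr7:4460447-4460696, plus strand), each hold 1 match on the opposite strand, where it reads GAAA, any 2 bases and GAAA.
Cxcl10: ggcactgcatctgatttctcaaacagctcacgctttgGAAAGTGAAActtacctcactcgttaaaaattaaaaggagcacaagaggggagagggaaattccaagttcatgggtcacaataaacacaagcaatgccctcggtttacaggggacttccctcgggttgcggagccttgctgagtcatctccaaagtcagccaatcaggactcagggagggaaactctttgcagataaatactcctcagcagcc
Ifi208: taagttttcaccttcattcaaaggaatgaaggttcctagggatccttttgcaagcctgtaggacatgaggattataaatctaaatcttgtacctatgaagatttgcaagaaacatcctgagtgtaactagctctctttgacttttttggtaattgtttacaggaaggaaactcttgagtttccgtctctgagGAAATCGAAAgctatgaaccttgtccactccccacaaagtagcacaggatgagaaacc
Eps8l1: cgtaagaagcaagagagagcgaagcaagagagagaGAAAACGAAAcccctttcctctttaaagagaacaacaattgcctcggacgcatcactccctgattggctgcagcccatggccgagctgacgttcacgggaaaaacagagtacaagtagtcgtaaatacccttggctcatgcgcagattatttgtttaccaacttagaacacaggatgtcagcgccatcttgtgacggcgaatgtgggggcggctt
Hmmr (chr11:40733438-40733637, minus strand) holds 5 CCAAT boxes and Prr11 (chr11:87108715-87108964, minus strand) holds 4.
Hmmr: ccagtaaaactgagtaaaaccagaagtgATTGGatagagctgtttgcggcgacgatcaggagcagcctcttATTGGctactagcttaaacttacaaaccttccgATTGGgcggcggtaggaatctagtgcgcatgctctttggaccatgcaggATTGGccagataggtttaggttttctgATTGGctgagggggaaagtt
Prr11: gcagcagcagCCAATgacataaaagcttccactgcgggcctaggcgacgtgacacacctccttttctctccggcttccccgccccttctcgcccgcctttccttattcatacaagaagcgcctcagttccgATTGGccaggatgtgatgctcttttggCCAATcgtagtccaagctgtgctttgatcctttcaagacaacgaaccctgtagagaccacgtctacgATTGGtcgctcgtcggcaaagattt

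Receptors that steer T cells in tissue formed a group of 7 members, with a median ratio of 2.24. Ccr2, the receptor for monocyte chemoattractant (chr9:124101950-124113557), was at 19.1, 21.6 and 29.7 CPM in the Trim28-high and 9.42, 9.32 and 15.3 CPM in the Trim28-low libraries, 2.07-fold (interval 1.84 to 2.39). Deficient 2 came close to sufficient 1 in Ccr2. Gpr183, the oxysterol receptor that positions lymphocytes, was at 47.1, 67.2 and 60 CPM against 22.5, 25.2 and 30 CPM. It overlaps Ubac2 on the opposite strand. Cxcr6, another chemokine receptor on chromosome 9, was at 10, 4.71 and 6.28 CPM against 2.72, 2.68 and 3.72 CPM. Sufficient 1 was the highest of the 6 libraries in Cxcr6. Gpr15, a receptor for homing to the colon, was at 13.1, 9.04 and 10.4 CPM against 5.05, 4.76 and 6.43 CPM. Il17rb, a receptor subunit for interleukin-25, was at 5.25, 4.81 and 5 CPM against 2.33, 1.88 and 2.81 CPM, and the leukotriene receptor gene Cysltr1 had 0 counts in sufficient 3 and deficient 1. Of 25 trafficking receptor and ligand genes at a mean of at least 1 CPM, 11 lay wholly higher in the Trim28-high libraries and 4 wholly lower, where 14.6% and 11.8% of 12058 genes did. The median log2 ratio of the 25 genes was 0.07. Sums over the 31 matched genes of the list were 6871, 6929 and 6614 CPM against 6368, 6398 and 6615 CPM, with deficient 3 level with deficient 2.

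Transcription factors that define helper T cell lineages were among the members. Tbx21, which encodes T-bet of the Th1 lineage (chr11:97098071-97115331), was at 6.73, 6.38 and 7 CPM against 3.98, 3.37 and 3.62 CPM, 1.83-fold (interval 1.45 to 2.33). Eomes, a T-box relative of T-bet, was at 4.26, 2.06 and 2.55 CPM against 1.26, 1.09 and 1.81 CPM. In Eomes sufficient 1 stood apart from the other Trim28-high libraries. Vdr, the vitamin D receptor, was at 1.88, 1.77 and 1.55 CPM against 0.68, 0.496 and 0.904 CPM. Ifng, the Th1 cytokine interferon gamma, was at 2.87, 2.26 and 1.36 CPM against 0.777, 0.794 and 0.904 CPM. Of 13 helper lineage and cytokine genes at a mean of at least 1 CPM, 8 lay wholly higher in the Trim28-high libraries and 0 wholly lower. Of all 12058 genes at that mean, 14.6% and 11.8% did. Of the 13 genes 4 were members, among them Eomes, Ifng and Tbx21, against 113 of the 12058. The median log2 ratio of the 13 genes was 0.19. Sums over the 24 matched genes of the list overlapped, at 2139, 2109 and 2027 CPM against 2122, 1964 and 2035 CPM.

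Penk, which encodes the opioid precursor proenkephalin (chr4:4133531-4138819), was the highest member per length, with a mean of 38.6 CPM per kb of exon in the Trim28-high and 13.7 in the Trim28-low libraries. Its values were 67.8, 71.4 and 50.2 CPM against 24.8, 24.2 and 18 CPM, 2.83-fold (interval 2.57 to 3.07). Rln3, a relaxin family hormone, followed at 33.8 and 11.8 CPM per kb. Its values were 24, 22.5 and 17.8 CPM against 6.7, 8.13 and 7.63 CPM, 2.86-fold. Deficient 3 was the lowest of the Trim28-high libraries in both hormone genes. Other secreted factors among the members were Cxcl10, an interferon-induced chemokine, Hgf, hepatocyte growth factor, and Gdf11, a ligand of the TGF-beta family. Gdf11 was at 18.1, 17.3 and 22.3 CPM against 10.8, 9.82 and 8.94 CPM.

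Roles were assigned after the symbols were known, and 45 members were not placed in any. The largest placed group was adhesion, cell junctions and guidance, with 16 members and a median ratio of 2.31. Signalling and cytoskeleton followed with 15, and the share of such genes among all genes was not counted. Nav2, a cytoskeletal protein of neurite growth (chr7:48908716-49610090), was at 46.8, 46.2 and 38.5 CPM against 13.9, 14.2 and 14 CPM, 3.13-fold (interval 2.79 to 3.48). Plxnd1, a semaphorin receptor, was at 67.8, 59.2 and 46.8 CPM against 27.4, 24.9 and 23 CPM. Alcam, an adhesion molecule that binds CD6, was at 11.1, 13.9 and 10.7 CPM against 4.47, 4.96 and 4.12 CPM. In these 3 genes the Trim28-low libraries lay close to each other. Ptgfrn, a membrane partner of tetraspanins, was at 31, 33.4 and 28.3 CPM against 14.6, 14.9 and 14.7 CPM, and Farp1, a guanine nucleotide exchange factor of neurons, at 12.4, 12.2 and 12 CPM against 6.12, 4.36 and 4.02 CPM. The group also held junction proteins at low level, namely Dsp (desmoplakin), Jup (plakoglobin), Ctnnd1 (p120-catenin) and Nectin1. Among 11 members of the matrix and its proteases, Lamc1, the laminin gamma 1 chain, was at 51.3, 49.4 and 53.4 CPM against 26.7, 24.7 and 23.6 CPM, 2.05-fold. Tmprss13, a membrane serine protease, was at 3.27, 3.73 and 2.91 CPM against 0.0971, 0.794 and 0.804 CPM. Sufficient 3 held 1 count of Tmprss13. Col1a1 and Col1a2, collagen genes that mark stromal cells, were members at a mean near 1 CPM, while the stromal markers Col3a1 and Pdgfra were at 0 in all 6 libraries.

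**Figure D2:**
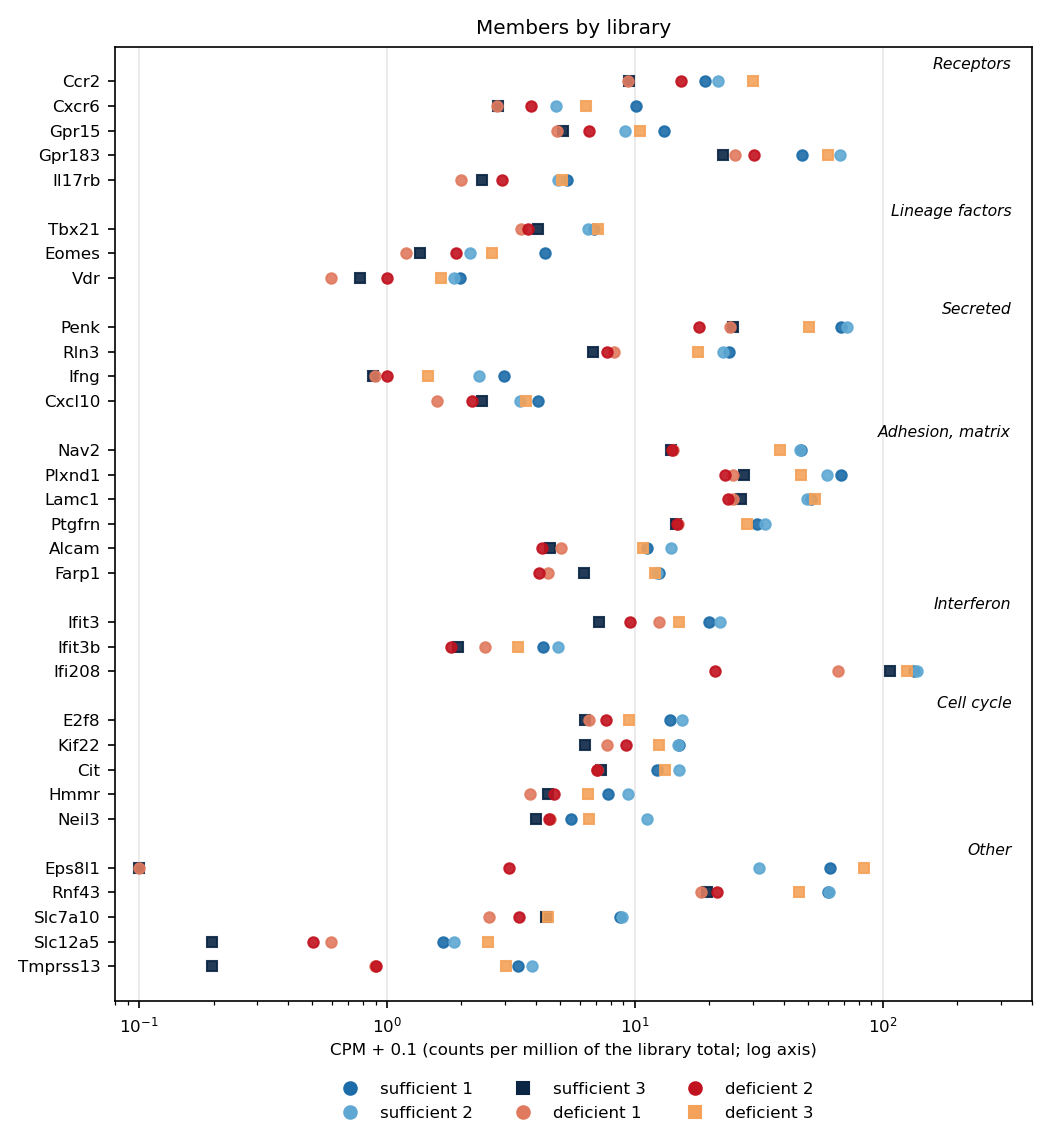
CPM + 0.1 (log axis) of 31 members by library, grouped by role. Squares mark sufficient 3 and deficient 3, the libraries in which Trim28 goes against the label. Deficient 3 (orange squares) lies above sufficient 3 (dark squares) in each by construction, by a small margin in Slc7a10 (4.37 against 4.27 CPM), and sufficient 3 lies near the Trim28-high libraries in Ifi208.

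Rnf43, a ubiquitin ligase that dampens Wnt signalling (chr11:87662722-87735539), was at 60, 60.4 and 45.7 CPM against 19.4, 18.5 and 21.3 CPM, 2.81-fold (interval 2.54 to 3.07). Gna15, a G protein alpha subunit, was at 12.6, 11.6 and 11 CPM against 5.44, 5.75 and 6.03 CPM. Marcksl1, an actin-binding substrate of protein kinase C, was at 21, 23 and 19.7 CPM against 15.2, 10.2 and 9.54 CPM, with sufficient 3 above deficient 1 and 2. Slc7a10, an amino acid transporter, was at 8.61, 8.74 and 4.37 CPM against 4.27, 2.48 and 3.32 CPM. Deficient 3 exceeded sufficient 3 only narrowly in Slc7a10. Cybb, the catalytic subunit of the phagocyte NADPH oxidase, was at 18.3, 22.1 and 24.9 CPM against 7.57, 14.4 and 14 CPM. Cybb in sufficient 3 was well below deficient 1 and 2.

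Interferon-stimulated genes gave 3 members that differed in pattern. Ifi208, of the IFI200 family of DNA-binding proteins (chr1:173673675-173698395), was the most abundant member by CPM. It was at 134, 138 and 125 CPM in the Trim28-high libraries and 107, 66.2 and 20.9 CPM in the Trim28-low libraries. Sufficient 3 lay near the Trim28-high values, and deficient 2 was far below all others. Related copies of this family share sequence, so its count is uncertain. Ifit3 (chr19:34583531-34588731), which limits viral RNA, was at 19.8, 21.9 and 14.9 CPM against 7.09, 12.4 and 9.44 CPM. Its near-identical neighbour Ifit3b lies 19.2 kb away and was at 4.16, 4.81 and 3.27 CPM against 1.84, 2.38 and 1.71 CPM, and reads of both cannot be separated with certainty. Of 46 interferon-stimulated genes at a mean of at least 1 CPM, 16 lay wholly higher in the Trim28-high libraries and 7 wholly lower. Of all 12058 genes at that mean, 14.6% and 11.8% did. With Cxcl10, 4 of the 46 were members, against 113 of the 12058. The median log2 ratio of the 46 genes was 0.10. Summed over the 48 matched genes of the list, the sets overlapped. The sums were 6294, 6323 and 6156 CPM in the Trim28-high and 6407, 6246 and 6190 CPM in the Trim28-low libraries.

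Genes of cell division gave 8 members with ratios from 1.802 (Neil3) to 3.01 (Cdc25c). E2f8, a repressor of E2F targets (chr7:48866429-48881596), was at 13.8, 15.4 and 9.37 CPM against 6.21, 6.45 and 7.53 CPM. Kif22, a chromosome-bound kinesin, was at 14.9, 14.8 and 12.4 CPM against 6.21, 7.64 and 9.14 CPM. Cit, citron kinase of cytokinesis, was at 12.2, 14.9 and 13.1 CPM against 7.18, 6.94 and 6.93 CPM. Deficient 3 was the lowest of the Trim28-high libraries in E2f8 and Kif22. None of the 8 had a lower bound of its counting interval above 1.8. Of 95 cell cycle genes at a mean of at least 1 CPM, 72 lay wholly higher in the Trim28-high libraries and 1 wholly lower. Of all 12058 genes at that mean, 14.6% and 11.8% did. The median log2 ratio of the cell cycle genes was 0.47, where the median of all genes was 0.01. Summed CPM of the 95 cell cycle genes was 2263, 2658 and 2256 in the Trim28-high and 1812, 1805 and 1923 in the Trim28-low libraries.

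**Figure D3:**
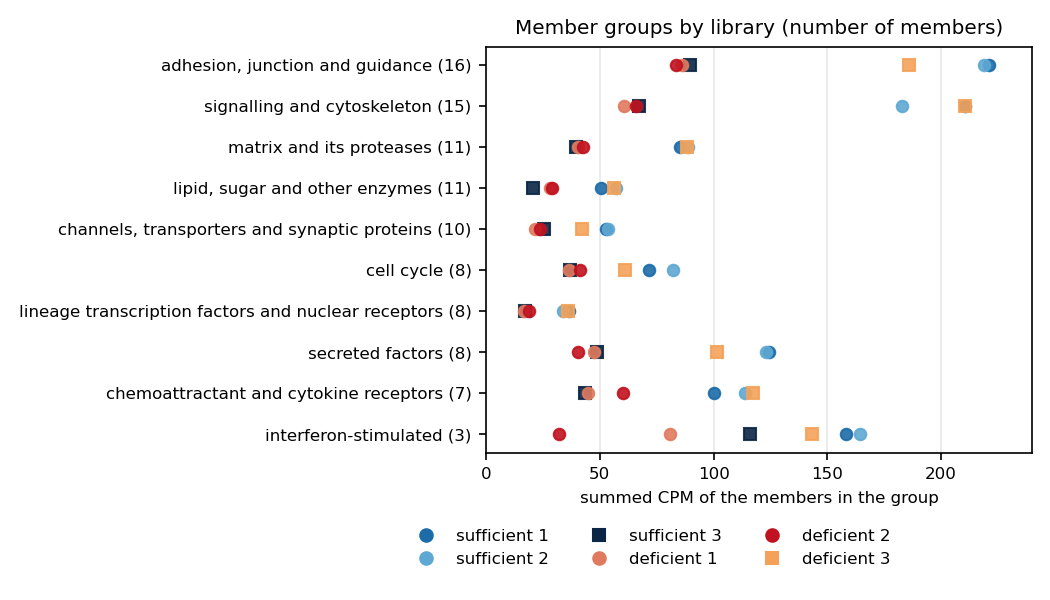
Summed CPM of the members of each role group (number of members in parentheses) in each of 6 libraries. The Trim28-high libraries are above the Trim28-low ones in every group by construction, the gap is widest on this scale for adhesion and signalling genes, and sufficient 3 lies apart from deficient 1 and 2 among interferon-stimulated genes.

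Markers of the sorted cell and of other cells were read beside these groups. Of all 12058 genes at a mean of at least 1 CPM, 14.6% lay wholly higher in the Trim28-high libraries and 11.8% wholly lower. Members made up 113 of the 12058. The summed CPM of 17 core Treg genes ran from 6399 to 6583 over the libraries, none of them was a member, 0 lay wholly higher and 4 wholly lower in the Trim28-high libraries, and Foxp3 had 5934 to 7546 counts. Summed B cell markers ran from 746 to 848 CPM in the Trim28-high and 706 to 753 CPM in the Trim28-low libraries. Of 11 B cell markers at a mean of at least 1 CPM, 5 lay wholly higher in the Trim28-high libraries and 2 wholly lower, and 2 met the thresholds of the rule and were left out by name. Ms4a1 and Pax5 had at most 1 count in any library. Summed myeloid markers ran from 313 to 358 CPM in the Trim28-high and 269 to 291 CPM in the Trim28-low libraries. Of 6 myeloid markers at a mean of at least 1 CPM, 2 lay wholly higher in the Trim28-high libraries and 0 wholly lower. Mmp9 is a member on that list. Lyz2 on that list had 0 to 4 counts and Csf1r 1 to 3, and the dendritic marker Itgax had 0. Summed stromal markers, with the members Col1a1 and Col1a2, ran from 238.3 to 259.1 CPM in the Trim28-high and 216 to 243 CPM in the Trim28-low libraries. Of 2 stromal markers at a mean of at least 1 CPM, 1 lay wholly higher in the Trim28-high libraries and 1 wholly lower. Their median log2 ratio was -0.30, and 0 of them were members, so the collagen genes were under that mean. Summed CD8 T cell markers, with the member Eomes, ran the other way, from 145 to 177 CPM and from 201 to 219 CPM, with Cd8a at 0 to 5 counts, while 2 of 7 genes lay wholly higher and 1 wholly lower in the Trim28-high libraries. Summed natural killer markers did the same, from 151 to 180 CPM in the Trim28-high and 203 to 224 CPM in the Trim28-low libraries, with Ncr1 at 0, while 3 of 9 genes lay wholly higher, 1 of the list meeting the thresholds and left out by name, and 2 wholly lower. Both lists had a median log2 ratio of 0.18, opposite to their sums, and Ctsw (cathepsin W), on both, averaged 109 CPM in the Trim28-high and 168 CPM in the Trim28-low libraries. Of 33 effector Treg genes at a mean of at least 1 CPM, 17 lay wholly higher in the Trim28-high libraries, 1 wholly lower and 3 were members, among them Ccr2 and Cxcr6. Of 18 naive and central Treg genes 2 lay higher, 5 lower and 0 were members, and of 27 immediate early genes 6 lay higher, 3 lower and 0 were members. Whether these markers had a part in the members' ratios was not tested.

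By the labels, sufficient against deficient, no member was called. Over 12158 genes tested with edgeR's quasi-likelihood test, 1 was called lower in deficient cells (0.00823%) and 2 in either direction (0.0165%) at an adjusted p below 0.05. Of 121 members that passed the filter on low counts, 0 were called, and 5 had an unadjusted p below 0.05, all lower in deficient cells, where 3.50% of all genes did so. DESeq2's Wald test called 0 of 142 members and gave 8 with an unadjusted p below 0.05. The log2 fold change was below 0 in 112 of the 121 members and above 0 in 9, with a median of -0.45, where 51.2% of all genes were below 0. Among the lists, edgeR called 0 genes, and an unadjusted p below 0.05 with lower values in deficient cells was found for 3 of 94 cell cycle, 3 of 11 B cell, 4 of 27 immediate early, 2 of 13 helper lineage, 0 of 46 interferon-stimulated and 0 of 25 trafficking genes. This test is not independent of the rule, which used 2 libraries of each label on the side of their label, so nothing is read from these counts.

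Single members show what the labelled comparison averages. For Slc7a10 the log2 fold change was -1.08 ± 0.31 (SE), and its adjusted p of 0.632 by edgeR was the lowest among the members. Art2a-ps, a pseudogene of a T cell ecto-ADP-ribosyltransferase, had 26, 24 and 14 counts in the Trim28-high libraries and 8, 1 and 2 in the Trim28-low, and its labelled log2 fold change was -1.79 ± 0.76. Nav2 stood at -0.68 ± 0.69 and Penk at -0.83 ± 0.62. Eps8l1, with high values under both labels, stood at -0.08 ± 2.02. Ldlrad3 had the highest labelled value, 0.46. Without sufficient 3, edgeR called 308 genes lower in deficient cells (2.50%) and 9 members, namely Cdc25c, Coro2b, E2f8, Gm11821, Gm12565, Ifit3, Raph1, Rundc3a and Slc7a10. Without deficient 3 it called 0 members. Without both, a comparison of the rule's own libraries, 900 genes were called lower (7.39%), among them 89 of 122 members, which is a description and no support.

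**Figure D4:**
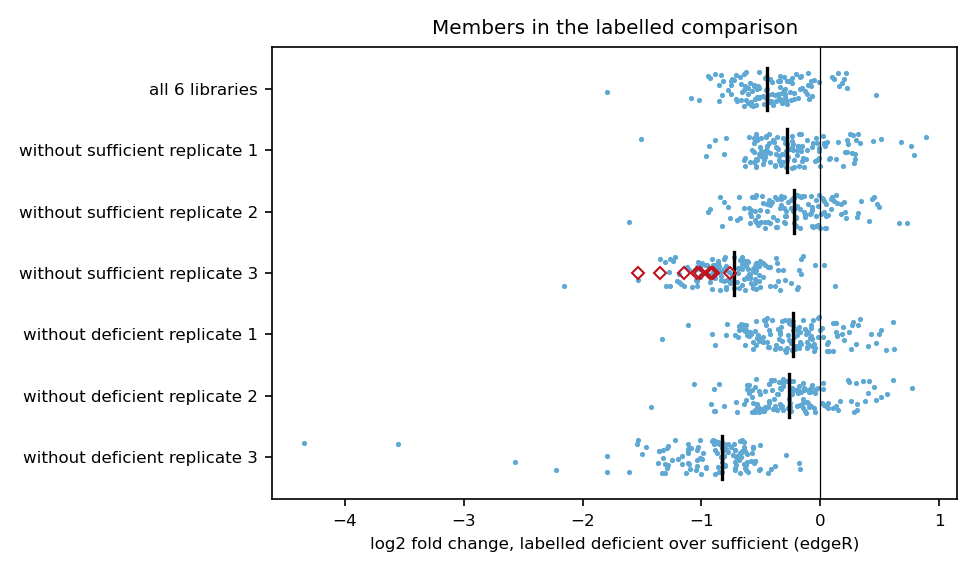
Log2 fold changes of the members, labelled deficient over sufficient (edgeR), with all 6 libraries and with each library left out in turn; dots are members, bars medians, and red diamonds members called at an adjusted p below 0.05. The median is -0.45 with all 6 libraries, and 9 diamonds appear, all without sufficient 3.

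The authors' deposited table of their own comparison had a row and an adjusted p for 114 members. Its header gives no direction; in the authors' deposited table Trim28 had a log2 fold change of 3.11, so positive values were read as higher in sufficient cells. Of these rows of the authors' deposited table, 56 had an adjusted p below 0.05 with sufficient cells higher and 0 with deficient cells higher, where 3.02% of 12072 genes were in the first class. That table comes from the libraries that chose the members, so these counts are a description and nothing is read from them. In the authors' deposited table Nav2 had a log2 fold change of 1.29 with an adjusted p of 2.24e-33, and Penk 1.15 with 8.16e-23, both higher in sufficient cells. Eps8l1 was not called in the authors' deposited table, with a log2 fold change of 0.0975 and an adjusted p of 0.271. Nor was Art2a-ps, at 0.0402 and 0.929 in the authors' deposited table. By the labels, the mean CPM of Trim28 in the counts was 170 in sufficient and 91.0 in deficient libraries, a log2 ratio of 0.90, and over the Trim28-high and Trim28-low libraries the log2 ratio was 3.52. The 3.11 of the authors' deposited table is nearer to the second. Which libraries entered on which side of it is not stated in the labels, so "sufficient" in that table cannot be tied to the libraries labelled so. C130026I21Rik was the only one of the 114 with a value under 0 in the authors' deposited table, at -7.13e-05.

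By construction deficient 3 lay on the side of sufficient 1 and 2 in every member, but it was not level with them. Over the members, the median ratio of deficient 3 to the mean of sufficient 1 and 2 was 0.922, where all genes had 1.004. Deficient 3 was below both of them in 62 members, between them in 45 and above both in 35. Cdc25c, the phosphatase of mitotic entry, had the lowest such ratio at 0.415, and Elavl4, an RNA-binding protein of neurons, the highest at 2.19. Sufficient 3, on the side of deficient 1 and 2 by construction, was below both in 52 members, between them in 48 and above both in 42. Its median ratio to their mean was 0.971, where all genes had 1.002. Art2a-ps had the highest such ratio, 5.18.

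In position, 133 members could be placed, and 32 of them had another member within 1 Mb, in 23 pairs. Close pairs were Mmp9 and Slc12a5 (4.95 kb apart), Ifit3 and Ifit3b, E2f8 and Nav2 (27.1 kb) and Il17rb and Cacna1d (31.0 kb). Chromosome 9 held 14 members, 10.5% of those placed, against 5.30% of genes at a mean of at least 1 CPM over 6 libraries. Chromosome 7, which carries Trim28, held 13 members (9.77% against 7.54%). These member shares are over all 133 placed members, of which 107 reach that mean, so the sets compared are unlike. Near Trim28 lay Eps8l1 and, from 6.11 to 6.69 Mb beyond it, Qpctl, Ppp1r13l, Zfp296 and Nectin2. Within 20 Mb of Trim28, 282 genes had a mean of at least 1 CPM over 6 libraries. Of these, 9 met the thresholds (3.19%), against 0.920% on other chromosomes, but 6 of the 9 were left out by name. The other 3 were members (1.06%), against 0.883% on other chromosomes. Zfp296 and Nectin2, members in the same stretch with means of 0.681 and 0.513 CPM over 6 libraries, are not among the 282. Among 371 genes that are not members and lie within 100 kb of one, 17.3% were wholly higher in the Trim28-high libraries, against 14.7% of all placed genes.

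**Figure D5:**
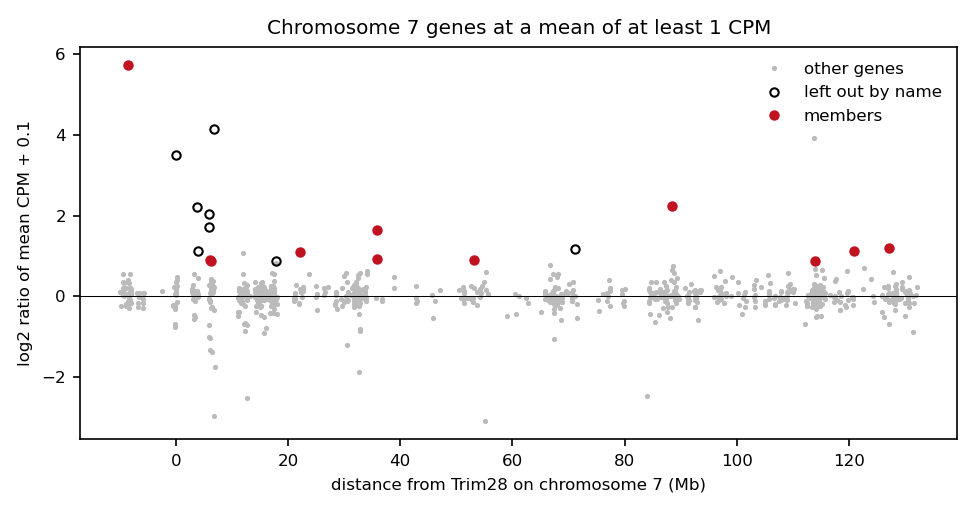
Genes on chromosome 7 at a mean of at least 1 CPM, by distance from Trim28 (x axis, Mb) and log2 ratio of mean CPM + 0.1 in Trim28-high over Trim28-low libraries (y axis). The members drawn (red) are spread along the chromosome, Eps8l1 lies 8.52 Mb before Trim28, and most of the genes left out by name (open circles) lie within 20 Mb of it. Zfp296 and Nectin2, members near Trim28 under that mean over 6 libraries, are not drawn.

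Promoters of 90 of 133 named members were found in a RefSeq table (GRCm38.p6, 250 bases before and 50 after the start). They held fewer CpG dinucleotides than others, with a median of 15 against 21 in 8665 genes at a mean of at least 1 CPM and 18 in the 1797 of these at 1 to under 10 CPM. Fewer than 5 CpG were found in 20 members (22.2%), against 5.33% of all these genes and 11.1% of those at 1 to under 10 CPM. Ccr2, Cxcr6, Gpr15, Gpr183, Cybb, Ifi208, Ifit3 and Ifit3b were among these CpG-poor promoters. The pair of TTTC with 2 bases between, which resembles the interferon-stimulated response element, was present on either strand in 11 members (12.2%), against 3.85% of all. The carriers were Cxcl10, Cybb, E2f8, Eomes, Eps8l1, Gpr15, Ifi208, Ifit3, Ifit3b, Ldlrad3 and Unc13a, and the pattern was chosen after the members were known. TGANTCA, the AP-1 pattern, was in 9 members (10%) and 5.60% of all. TCACACCT, the T-box pattern, was in 4 members (4.44%), namely Atg9b, C130026I21Rik, Gm15764 and Pdzk1ip1, and in 1.05% of all. TTTGAA, also chosen after the members were known, was in 22.2% and 14.2%. CCAAT (42.2% and 43.4%), TGTGGT, the Runx pattern (12.2% and 15.2%), GGAAA (67.8% and 63.5%), TATAAA (11.1% and 7.97%) and GGGCGG (60.0% and 69.8%) were near or below the background. TTTCGCGC, an E2F pattern, was in none of the 90 members and in 0.808% of all, too rare for its absence to be read. A match is a description of letters in these windows.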

How the data were processed

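Per the labels' protocols, CD4+ spleen cells were enriched, YFP+ Treg were sorted, and TruSeq libraries were made from total RNA. The mm10 build, DESeq2, HTSeq 0.7.2 and TopHat2 2.1.1 are named, without roles, per the submitters' processing notes. The authors deposited raw counts per Ensembl gene, and their own comparison with log2 fold changes, standard errors, a test score, signal means and adjusted p-values. The header names no direction, so its deposited log2 values were read from the sign of Trim28, positive for sufficient cells higher. Neither a strand setting nor an annotation release is given in the sources consulted.

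CPM was computed from column totals (3 counts equal 0.273 to 0.301 CPM), and members were picked by the rule stated in the report. The members and lists were chosen with earlier results of these data known. Named members were those with the highest ratio or level, those in the lists, those at the threshold, those near Trim28 or another member, those in which deficient 3 or sufficient 3 lay furthest from its neighbours, and others by role. Some members and markers are not reported here. Labelled groups were compared with edgeR 4.0.16 in R 4.3.3 (quasi-likelihood, robust, TMM, filterByExpr, Benjamini-Hochberg at 0.05), tested on simulated data. DESeq2 1.42.0, other scaling, no filter, a replicate block and leave-one-out served as alternatives, and leaving out both sufficient 3 and deficient 3 was added after seeing the data. Symbols matched 32919 of 37991 identifiers, positions are from GENCODE M21 on mm10 (GRCm38), and promoters from RefSeq. Python 3.11.15, pandas 2.3.3, numpy 2.4.6, scipy 1.17.1 and matplotlib 3.10.9 were used. Intervals and floors cover counting error only. Each SE beside an edgeR log2 fold change is the size of that change divided by the square root of the test's F value.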

Additional observations from a re-analysis of the deposited data

How the results depend on the processing

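The member count is a property of the thresholds: 142 became 139 under TMM or DESeq2 size factors (in each case all 139 were members), 99 at a ratio of 2, 308 at a ratio of 1.5 and 52 at a mean of 5 CPM. Leaving out each library in turn gave 144 to 211 genes, and leaving out both sufficient 3 and deficient 3 gave 232. In the labelled comparison over all genes, edgeR called 2 genes, DESeq2 6, no filter 3, and leaving out each library in turn 1 to 807, the 807 without sufficient 3. Leaving out both gave 2114. Same-numbered libraries had correlations of -0.318, -0.214 and -0.557 (numbers 1, 2 and 3) between their deviations from the labelled group means. Each labelled group mixes Trim28-high and Trim28-low libraries, so these values cannot decide whether the numbers are pairs. The main fit took no pairs. With the replicate number as a block, 0 genes were called (705 at an unadjusted p below 0.05), and the block called 0 members. Members called were 0 under every scaling, filter and tool tried, 0 to 9 when each library was left out (9 without sufficient 3), and 89 without both. With each library left out, Ldlrad3 ran from -0.18 (without deficient 3) to 0.77, and stood at -0.52 without both. Eps8l1 ran from -4.35 to 0.89, turning to 0.89, 0.49 and 0.45 without sufficient 1, deficient 1 and deficient 2. The causes were not tested. Of the other alternatives for the named genes, 135 kept direction and side of the threshold and 16 passed it newly. All 16 were fits without sufficient 3, or without both sufficient 3 and deficient 3. Low counts limit the ratios: 36 members had fewer than 20 counts over the Trim28-low libraries.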
